A study of Mus musculus with 12 samples.

Results

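The comparison described here is the late against the early biopsy of the colon tumors that ended as intramucosal carcinoma, an early cancer still held within the mucosa. Its members were taken from the labels: the late biopsies whose final pathology reads intramucosal carcinoma, and the early biopsies of the same mice, joined by mouse number. They are 6 of the 12 arrays of the series and form 3 pairs, from mice 2201, 3407 and 3413.

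All mice were F1 hybrids of SWR females and C57BL/6 males, were Apc Min/+ (1 copy of Apc carries the Min mutation in every cell), and drank 4% dextran sodium sulfate, which damages the epithelium of the colon, in 2 rounds of 4 days with 17 days of water between them. The carcinoma mice were 95, 87 and 117 days old at the early biopsy (mice 2201, 3407 and 3413) and 267, 215 and 200 days old at the late one. The 3 adenoma mice, whose late biopsy was read as a benign adenoma, carried the same allele and had the same treatment, and serve below for contrast. The early biopsies have no pathology of their own in the labels, so an early carcinoma array is the early biopsy of a tumor later read as carcinoma. Mice lived under 12-hour light-dark cycles, and no hour of biopsy was given in the sources used here. A biopsy is a pinch of mixed tissue, so for any marker below, fewer cells of a type and less RNA per cell cannot be told apart.

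In Apc Min/+ mice a tumor starts when the remaining working copy of Apc is lost. APC protein helps to destroy beta-catenin, so its loss leaves the Wnt pathway switched on, with crypt-like growth and Wnt target genes such as Axin2 and Lgr5 at high levels. Adenoma is the benign stage of such a growth; in intramucosal carcinoma the cells have broken through their basement membrane and stay within the mucosa. The tumor tissue also holds stroma, vessels and immune cells, and each biopsy takes its own mix of them.

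Array values were log2 intensities, with medians from 7.74 to 7.80 on the 6 carcinoma arrays. Sex-linked genes matched the recorded sex on 6 of 6 of them. The early array of mouse 2201 stood with the 3 early adenoma arrays in its probe sets without a gene name: those with the 50 lowest numbers averaged 7.13 there, against 6.80 to 6.89 on the other carcinoma arrays. Mouse 2201's pair therefore crosses 2 array groups, while the pairs of 3407 and 3413 lie within 1. This is why values are given per mouse, and the part of the array group in the changes of mouse 2201 was not tested. Nothing in the labels says that an array was repeated, so 1 biopsy stands for each tumor and time.

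No gene passed the test between late and early biopsies of the carcinoma tumors. With limma, 0 of 19938 genes were higher and 0 lower at an adjusted p of 0.05 (percent called 0 and 0; smallest adjusted p 0.330). At an unadjusted p of 0.05, 338 genes were higher late (1.7%) and 520 lower (2.61%), together 858 (4.3%), where 996.9 are to be counted on if nothing differs. With 3 pairs an exact sign-flip test of a single gene cannot go below p = 0.25. The values below are therefore descriptions of 3 tumors, and every gene named had an adjusted p of 0.330 or more in limma with mouse as a fixed block.

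The 3 tumors moved by different amounts and mostly in different genes. Late was higher by 1 or more (log2) in 517 genes and lower by as much in 70 genes in mouse 2201, in 123 and 156 genes in mouse 3407, and in 38 and 74 genes in mouse 3413. Late was above early in 35.1%, 52.6% and 47% of genes in mice 2201, 3407 and 3413, and below it in 64.9%, 47.4% and 53%. The late biopsy followed the early one by 172, 128 and 83 days in the same order. Across the 19938 genes, which share 2 arrays per mouse and are not independent, the changes of 3407 and 3413 correlated at r = 0.19, those of 2201 and 3407 at r = 0.05 and those of 2201 and 3413 at r = -0.00. The same direction in 3 of 3 mice was seen in 1940 genes higher late (9.73%) and 3362 lower (16.9%). All 3 late values lay above all 3 early values in 535 genes (2.68%) and below them in 1050 (5.27%). This split became 730 and 917 after quantile normalization, and 504 and 836 with arrays centred on the median. Only 32 genes (0.16%) were higher by at least 0.5 in each mouse and 34 (0.171%) lower by as much.

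Of the genes higher late, the smallest p in limma was that of Pld5, a member of the phospholipase D family that lacks the usual catalytic activity. Its log2 level was 6.46, 6.44 and 6.49 in the early biopsies of mice 2201, 3407 and 3413, and 7.84, 7.58 and 7.59 in the late ones. The groups did not overlap, and the 3 early values lay within a narrow band. That band was dim: it lay below the array medians. It also lay below the averages of the 50 lowest-numbered unnamed probe sets on these early arrays (7.13, 6.87 and 6.84). Whether dim signal set the width of the band was not tested. The mean difference was 1.21 (SE 0.114, n = 3 pairs), a fold of 2.31, with a limma adjusted p of 0.330. With mouse as a random block in place of a fixed one, Pld5 passed the test (adjusted p 0.0433 in limma).

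Hmcn1, which encodes the extracellular matrix protein hemicentin-1, stood at 6.99, 7.67 and 8.76 early and at 9.54, 9.74 and 10.04 late. All 3 late values were above all early ones, and the early values were spread more widely than the late. The mean difference was 1.97 (SE 0.304, adjusted p 0.952 in limma), with changes of 2.54, 2.08 and 1.28 in the 3 mice. In adenoma mice 1755, 1803 and 1805 Hmcn1 was higher late as well, by 1.86, 1.59 and 0.55. Pyy, the gut hormone peptide YY of enteroendocrine cells, stood at 8.94, 10.43 and 10.03 early and at 10.96, 11.27 and 11.27 late, again without overlap. Its mean difference was 1.37 (SE 0.247, adjusted p 0.952 in limma). Pyy too was higher late in these adenoma mice, by 1.18, 0.27 and 0.69.

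Among the other genes that led the list of higher values, Stk39, a kinase that regulates ion cotransporters, differed by 0.46, 1.15 and 0.75 in mice 2201, 3407 and 3413. Ldhb, a lactate dehydrogenase subunit, differed by 1.07, 1.05 and 0.52. Tmem132c was nearly even across the mice at 0.65, 0.71 and 0.66, and Ttll7, an enzyme that adds glutamate to tubulin, differed by 0.48, 0.61 and 0.30. The cell adhesion gene Pcdhb9 (mean 0.77), Brinp1 (0.68), Rdh18-ps (0.62), a retinol dehydrogenase pseudogene whose probes may share sequence with its relatives, and Ccna1, cyclin A1 (0.38), complete the 12 together with Nr1d2, described with the clock genes.

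Several genes of secreted proteins had a sizeable smallest change over the 3 mice. Cxcl13, a chemokine that attracts B cells, was higher by 2.19, 2.06 and 1.22, and Igf2, an insulin-like growth factor, by 1.88, 0.88 and 0.87. In adenoma mice 1755, 1803 and 1805 Igf2 was higher late too (1.95, 2.95 and 0.45), while Cxcl13 was at 0.61, 0.06 and -2.69. Clps, the cofactor of pancreatic lipase, was higher by 1.01, 1.94 and 1.08, and the calsyntenin gene Clstn2 by a mean of 1.44 with a smallest change of 1.08. Reg3g and Defa24, both antimicrobial, are taken up with the epithelial lists.

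**Figure D1:**
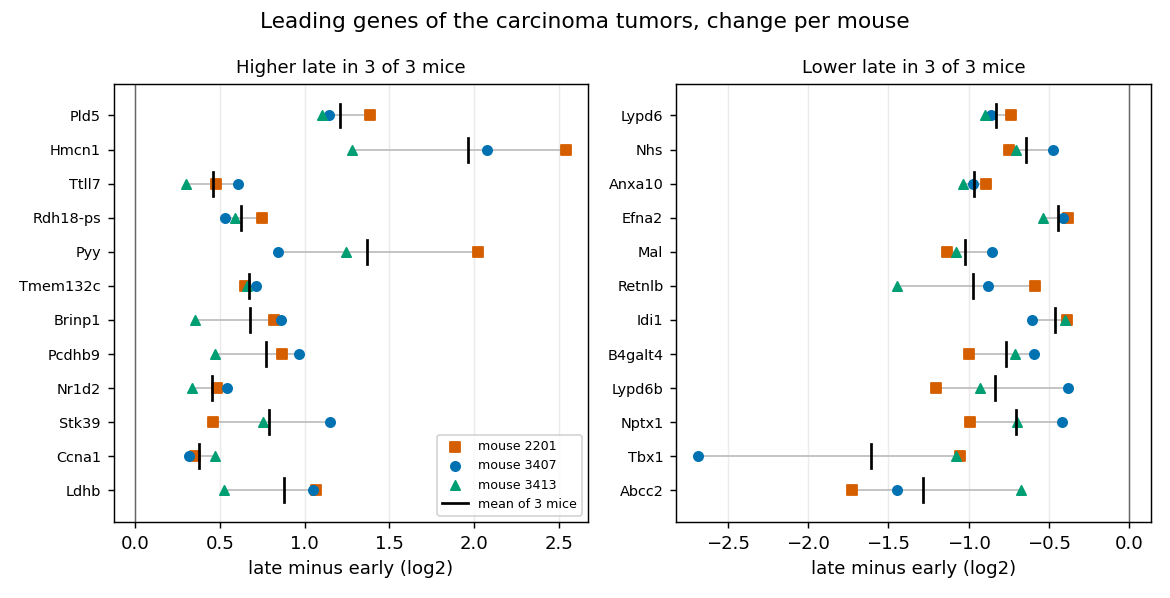
Late minus early difference (log2) of the 12 leading genes in each direction in the 3 carcinoma mice; symbols are mice and black lines are means. Pld5 and Tmem132c on the higher side and Lypd6 and Anxa10 on the lower side show tight symbols, while Hmcn1 runs from 1.28 to 2.54 and Tbx1 from -2.69 to -1.05.

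Of the genes lower late, the smallest p was that of Lypd6, a membrane-anchored protein of the Ly6 family that binds the Wnt co-receptor LRP6. Its level was 7.02, 7.72 and 7.69 in the early biopsies of mice 2201, 3407 and 3413, and 6.29, 6.86 and 6.80 in the late ones, so the groups did not overlap. Lypd6 was dim too, since each of these values lay below the median of its array. The late values lay near or below the averages of the 50 lowest-numbered unnamed probe sets on the late arrays (6.89, 6.86 and 6.80). Whether dim signal set the size or spread of the change was not tested. The mean difference was -0.83 (SE 0.0846, adjusted p 0.330 in limma, n = 3 pairs). Its close relative Lypd6b differed by -1.20, -0.38 and -0.93. Both were also lower late in 3 of 3 adenoma mice, by -1.16, -1.25 and -1.46 for Lypd6 in mice 1755, 1803 and 1805 and by -1.01, -1.29 and -1.22 for Lypd6b.

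Anxa10, an annexin typical of gastric epithelium, stood at 7.83, 6.88 and 7.48 early and at 6.94, 5.90 and 6.44 late. Its groups overlapped, since mouse 3407 began below where mouse 2201 ended, but the changes of -0.89, -0.97 and -1.03 were nearly equal. The mean difference was -0.97 (SE 0.152, adjusted p 0.952 in limma). The late values of Anxa10 were dim, below the array medians. In mice 3407 and 3413 they also lay below the averages of the 50 lowest-numbered unnamed probe sets (6.86 and 6.80). Abcc2, the export pump MRP2 for conjugated compounds, stood at 9.55, 10.98 and 10.10 early and at 7.82, 9.54 and 9.43 late. Its mean difference was -1.28 (SE 0.243, adjusted p 0.952 in limma), without overlap between the groups. In adenoma mice 1755, 1803 and 1805 Abcc2 was lower late too (-1.52, -1.63 and -2.45), while Anxa10 was at -0.57, -0.13 and 0.29.

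The transcription factor gene Tbx1 had the widest spread among the leading lower genes, at -1.05, -2.69 and -1.08 in mice 2201, 3407 and 3413. Mal, a membrane protein of apical transport, was lower by a similar amount in each mouse (-1.14, -0.85 and -1.08), and so was Nhs, a regulator of the actin cytoskeleton (-0.75, -0.47 and -0.70). Nptx1, a neuronal pentraxin, had a mean difference of -0.70, the galactosyltransferase gene B4galt4 one of -0.76, and the ephrin gene Efna2 one of -0.44. In adenoma mice 1755, 1803 and 1805, Tbx1 (-1.31, -1.38 and -1.24), Mal (-1.17, -0.67 and -0.26) and Nptx1 (-1.03, -0.74 and -1.16) were lower late too. There Nhs (-0.06, 0.26 and 0.14) and B4galt4 (-0.13, 0.08 and -0.55) were mixed, and Efna2 was higher (0.19, 0.16 and 0.10). Retnlb and Idi1 belong to lists described below.

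Among the lower genes with a sizeable smallest change, Ibsp, bone sialoprotein, stood at 7.87, 8.69 and 7.75 early and at 6.40, 6.96 and 6.01 late, with a mean difference of -1.65 (SE 0.497, adjusted p 0.952 in limma). When adenoma mouse 1805, whose change was 3.27, was left out of the fit, Ibsp passed the test (adjusted p 0.0281 in limma). Apela, a ligand of the apelin receptor, differed by -1.17, -2.15 and -1.18. The late values of Ibsp and Apela were dim, below the array medians. On the late arrays the 50 lowest-numbered unnamed probe sets averaged 6.89, 6.86 and 6.80. Apela lay below these averages in every mouse (5.67, 5.78 and 5.75), and Ibsp did in mice 2201 and 3413. Whether dim signal set the size of these changes was not tested. Alb, serum albumin, differed by -1.59, -1.13 and -0.88, Dapl1 by -0.98, -1.52 and -0.99, and Dsg4, a desmosomal cadherin of stratified epithelia, by -0.90, -2.92 and -0.79.

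**Figure D2:**
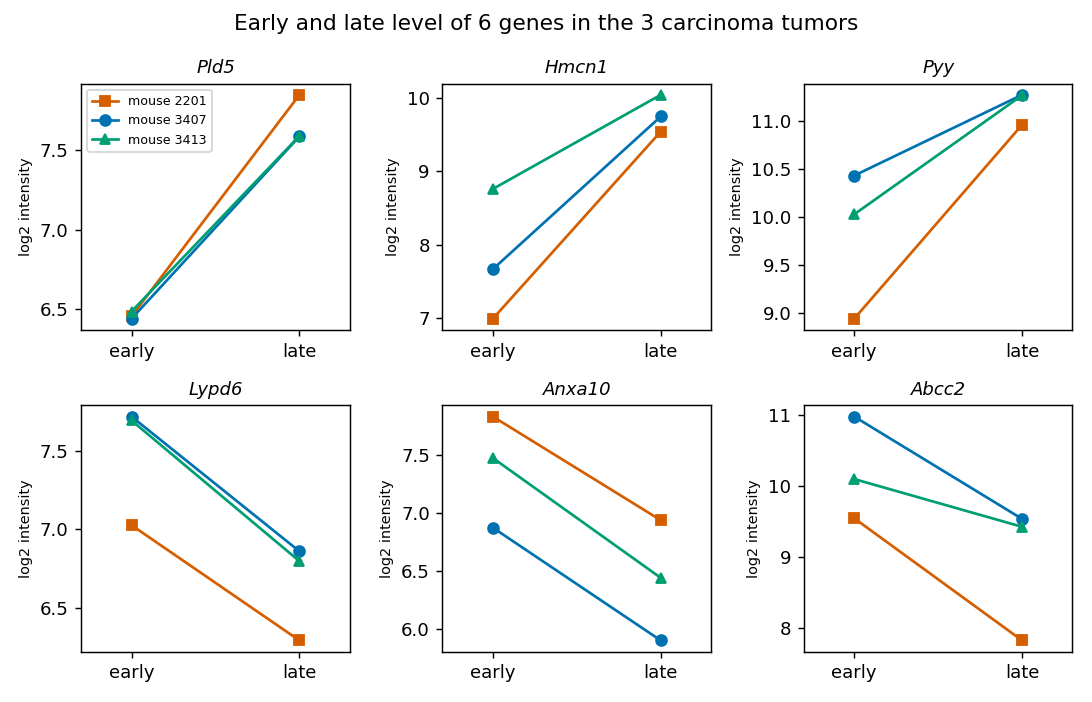
Log2 level of 6 genes in the early and late biopsy of each carcinoma mouse; a line joins the biopsies of 1 mouse, and each panel has its own scale that does not start at 0. Pld5 starts from nearly 1 point in all mice (6.44 to 6.49), a dim level below the array medians, whereas the Anxa10 lines run parallel from different starts.

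The genes that mark the driving lesion were near their early level. Apc itself, measured over the whole gene and not as an allele, differed by -0.02, -0.08 and -0.01 in mice 2201, 3407 and 3413. Ctnnb1, which encodes beta-catenin, had a mean difference of -0.08 (SE 0.0886), Myc one of -0.03 (SE 0.208) and Axin2, a feedback inhibitor and target of the pathway, one of -0.03 (SE 0.190). Smad4, a mediator of TGF-beta signals, differed by 0.05 (SE 0.105), and Pla2g2a, a phospholipase that modifies tumor number in Min mice, by 0.05 (SE 0.183). The adjusted p of these 6 genes in limma was 0.952 or more.

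Lgr5, the receptor that marks crypt base stem cells and a Wnt target, was higher in each mouse. It stood at 12.30, 10.75 and 12.02 early and at 12.88, 12.53 and 12.54 late in mice 2201, 3407 and 3413, and its groups did not overlap. The mean difference was 0.96 (SE 0.313, adjusted p 0.952 in limma), with the widest change, 1.78, in the mouse with the lowest early value. Of the 21 measured Wnt targets, 8 were higher and 13 lower, with a median of -0.03 beside -0.03 over all genes. Of the 31 Wnt ligands, receptors and modulators, 13 were higher and 18 lower, Lypd6, Lypd6b and the receptor gene Fzd10 (-0.22, -0.38 and -0.24) among the latter.

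Stem cell markers were higher in 10 of 12 cases, where 39.8% of all genes had a positive mean difference. Their median was 0.24, with medians of 0.02, 0.42 and 0.18 in mice 2201, 3407 and 3413. Rgmb, a co-receptor of BMP signals, was higher by 0.43, 0.48 and 0.15, and Cdca7, a cell division gene, by 0.02, 0.97 and 0.40. Msi1, an RNA-binding protein used as a stem cell marker, went the other way in every mouse, at -0.47, -0.52 and -0.46.

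Genes of DNA replication were lower late in the mean of the 3 mice, although 0 members of this or any other list were called by limma. All 23 measured members had a negative mean difference, under each of 3 scalings, where 60.2% of all genes did, and 11 of them were lower in 3 of 3 mice (16.9% of all genes). Their median was -0.23, with -0.47 in mouse 2201, -0.07 in mouse 3407 and -0.15 in mouse 3413, so most of the size came from mouse 2201, and the median without that mouse was -0.08. Groups did not overlap in 0 of the 23 (5.27% of all genes, lower late), and 5 had an unadjusted p under 0.05 (2.61% of all genes, lower late). In adenoma tumors the median of the list was -0.24. Ccne1, cyclin E1 of the step into S phase, stood at 10.21, 10.40 and 9.82 early and at 9.20, 10.10 and 9.39 late. Gins1, part of the replicative helicase, differed by -0.63, -0.55 and -0.10. The transcription factor gene E2f1, which drives S phase genes, differed by -0.51, -0.10 and -0.32, and Cdc45, a helicase partner, by -0.50, -0.07 and -0.27.

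Of the mitosis genes, 15 of 21 were lower (60.2% of all genes). The median was -0.06, and the medians by mouse were -0.16, -0.09 and 0.16. In 3 of 3 mice 0 members were lower (16.9% of all genes), and in mouse 3413 all 21 were higher. Mki67, the proliferation marker Ki-67, stood at 11.87, 11.99 and 11.81 early and at 11.71, 11.92 and 11.97 late, with a mean difference of -0.03 (SE 0.136). In mouse 2201 the medians of the fibroblast (1.04), endothelial (0.82), T cell (1.07) and MHC class II (1.69) lists were higher in the late biopsy while that of neutrophil genes was lower (-0.57), and their part in the lower replication values there was not tested.

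Cholesterol synthesis genes were lower in 13 of 13 measured members of 17 listed, under each of 3 scalings, where 60.2% of all genes were lower as deposited. Their median was -0.17, with -0.07, -0.13 and -0.30 in mice 2201, 3407 and 3413, so here mouse 3413 had the largest size and the median without mouse 2201 was -0.22. Members lower in 3 of 3 mice numbered 7 of 13 (16.9% of all genes). That count was 5 after quantile normalization and 8 with arrays centred on the median. Idi1, an isomerase of the building blocks of the pathway, stood at 11.02, 11.05 and 10.73 early and at 10.64, 10.45 and 10.33 late, without overlap. Its mean difference was -0.46 (SE 0.0811, adjusted p 0.952 in limma). Cyp51, the lanosterol demethylase, differed by -0.21, -0.48 and -0.23, Mvd, the mevalonate decarboxylase, by -0.22, -0.17 and -0.46, and Sqle, the squalene epoxidase, by -0.08, -0.10 and -0.33. In adenoma tumors the median of the list was -0.01, while these 4 genes were lower there too in 3 of 3 mice, Idi1 by -0.49, -0.29 and -0.39 and Cyp51 by -0.35, -0.54 and -0.26 in mice 1755, 1803 and 1805.

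The molecular clock is a feedback loop. ARNTL and CLOCK proteins switch on Per, Cry, Nr1d1 and Nr1d2 genes through E-boxes, and the products of these genes shut the loop down: PER and CRY act on the activators and the NR1D proteins repress Arntl. TEF, DBP and HLF proteins act on D-boxes of output genes. Upstream windows were searched for an E-box, a D-box or a nuclear receptor half-site. Those of the 3 clock genes with the smallest unadjusted p that hold 1 of these motifs are printed to show where those letters lie. The window of Nr1d2 holds neither box, only the half-site, which is in 14.0% of all windows.

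They come from RefSeq on GRCm38.p6, are the 250 bases before the annotated start, 5′ to 3′ on the gene's strand, and carry the motif in capitals. Nr1d2 lies at chr14:18239107-18239356 on the minus strand, Tef at chr15:81802423-81802672 on the plus strand and Per3 at chr4:151044666-151044915 on the minus strand:
Nr1d2: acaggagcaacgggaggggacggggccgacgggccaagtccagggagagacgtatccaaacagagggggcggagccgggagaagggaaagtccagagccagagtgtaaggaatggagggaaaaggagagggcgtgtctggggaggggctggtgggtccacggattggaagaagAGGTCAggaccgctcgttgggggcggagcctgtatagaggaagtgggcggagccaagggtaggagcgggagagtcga
Tef: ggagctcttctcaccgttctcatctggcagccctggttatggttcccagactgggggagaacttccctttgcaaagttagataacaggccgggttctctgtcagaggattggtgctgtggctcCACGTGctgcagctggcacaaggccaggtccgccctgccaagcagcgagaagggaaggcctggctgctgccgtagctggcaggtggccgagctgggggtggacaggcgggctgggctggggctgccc
Per3: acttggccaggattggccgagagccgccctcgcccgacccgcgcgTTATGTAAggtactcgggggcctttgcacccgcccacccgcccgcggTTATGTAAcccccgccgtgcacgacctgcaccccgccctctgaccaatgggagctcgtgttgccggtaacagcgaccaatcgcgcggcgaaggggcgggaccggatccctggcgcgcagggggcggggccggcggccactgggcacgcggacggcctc

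The E-box, the D-box and a half-site were searched on both strands, and no match printed above overlaps another. The E-box CACGTG is in 6.02% of the 32851 RefSeq windows of this length, the D-box TTATGTAA in 0.819% and the nuclear receptor half-site AGGTCA in 14.0%. Of the 13 clock genes with a window, 4 hold an E-box, 1 a D-box (Per3, which holds 2 copies) and 4 the half-site. These genes have 18 windows, and a gene counts if any of its windows matches. The shares of all windows are per window, so the 2 are not of the same unit. A match is a run of letters and not a measured binding site.

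Clock genes were higher in 10 of 14 measured members, with a median of 0.28 and medians of 0.28, 0.36 and 0.23 in mice 2201, 3407 and 3413. Members higher in 3 of 3 mice numbered 7 (9.73% of all genes), 5 had all late values above all early ones (2.68% of all genes), and 5 had an unadjusted p under 0.05 (1.7% of all genes). Nr1d2, the repressor REV-ERB beta, stood at 9.97, 9.87 and 10.07 early and at 10.45, 10.41 and 10.41 late. The late values nearly coincided, and the mean difference was 0.45 (SE 0.0872, adjusted p 0.952 in limma). Tef stood at 8.37, 8.09 and 8.43 early and at 8.66, 8.64 and 8.70 late, Per2 at 8.20, 8.30 and 8.37 early and at 8.63, 8.82 and 8.66 late, and Per3 at 8.13, 7.81 and 8.06 early and at 8.44, 8.26 and 8.39 late. None of these 3 overlapped between the groups.

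Ciart, a repressor of the loop, and Dbp, a relative of Tef, were higher in 3 of 3 mice as well, by 0.28, 0.29 and 0.50 for Ciart and by 0.98, 0.52 and 0.26 for Dbp. Nr1d1 was higher in mice 2201 (0.87) and 3407 (0.97) and near its early level in 3413 (-0.04). The activator gene Arntl went the other way at -0.73, -0.09 and -0.18, as did Cry2 at -0.11, -0.23 and -0.16.

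**Figure D3:**
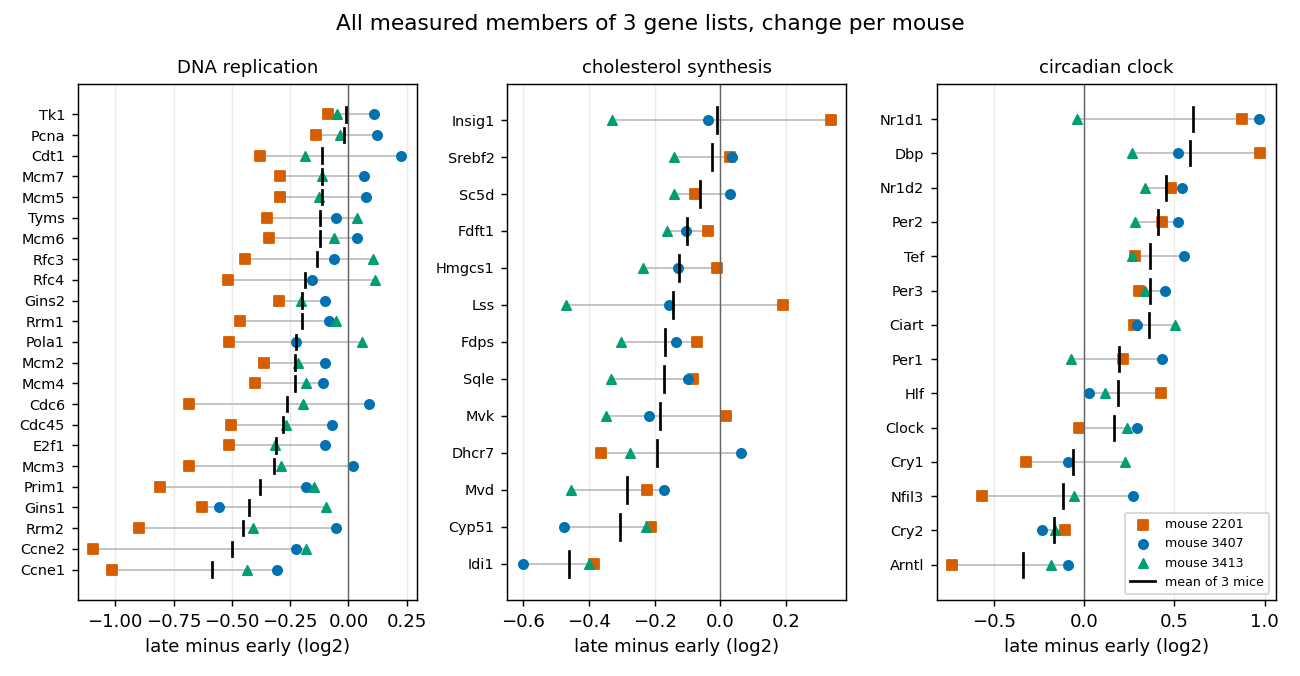
Late minus early difference (log2) of all 23 measured DNA replication genes, 13 cholesterol synthesis genes and 14 clock genes in the 3 carcinoma mice; black lines are means. Mouse 2201 lies farthest left for most replication genes, and the means of the first 2 panels are all at or below 0.

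Epithelial lists moved in several directions. Paneth-type and antimicrobial genes, of the granule cells that guard the crypt, were higher in 10 of 11 (39.8% of all genes). Their median was 0.55, with medians of 0.50, 0.88 and 0.55 in mice 2201, 3407 and 3413. Reg3g, a lectin that kills Gram-positive bacteria, stood at 11.72, 8.92 and 10.97 early and at 12.59, 12.21 and 12.32 late, where the late values lay close together after a wide early range. Its mean difference was 1.84 (SE 0.664, adjusted p 0.952 in limma). Reg3b, its relative, was higher by 0.82, 4.02 and 1.24, Ang4, a secreted ribonuclease, by 0.74, 1.61 and 0.55, and Lyz1, the Paneth cell lysozyme, by 0.50, 0.92 and 1.64. Defa24, a defensin whose family members are so alike that its probe set may read several, was higher by 1.17, 1.88 and 2.29. In adenoma mice 1755, 1803 and 1805 Reg3g was higher late too (3.44, 0.17 and 2.27). There Reg3b (3.25, -0.59 and 3.71), Ang4 (-0.21, 1.26 and -1.28) and Defa24 (1.25, -1.26 and -4.69) were mixed. The median of the Paneth-type list in adenoma tumors was -0.08. The acute-phase and mucosal defence list, which also holds Reg3 genes, was higher in 13 of 17 members (39.8% of all genes). Of these, 9 were higher in 3 of 3 mice (9.73% of all genes), among them the ferroxidase gene Cp (0.56, 0.42 and 0.23) and Hp, haptoglobin (0.29, 1.54 and 0.17).

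Goblet cell genes did not move as 1 block: 6 of 14 were higher and 8 lower, with a median of -0.05. Retnlb, a secreted goblet cell product, stood at 10.77, 9.91 and 10.50 early and at 10.18, 9.02 and 9.05 late, with a mean difference of -0.97 (SE 0.171, adjusted p 0.952 in limma). Tff3, the goblet cell trefoil peptide, was at 1.23, 0.93 and -0.12, and Muc2, the main gel-forming mucin, at -0.05, 0.03 and -0.88. Zg16 and Clca1, both secreted with mucus and chosen here after their values were seen, split the mice. Zg16 stood at 8.16, 12.02 and 11.33 early and at 11.23, 6.76 and 10.48 late, and Clca1 at 8.24, 11.33 and 11.42 early and at 10.70, 6.57 and 9.46 late. The change in Zg16 was thus 3.08 in mouse 2201 and -5.26 in mouse 3407.

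Surface colonocyte genes had a negative mean difference in 14 of 20 members (60.2% of all genes), with medians of 0.11, -0.24 and 0.06. In mice 2201, 3407 and 3413, 6, 14 and 9 members were lower. In 3 of 3 mice 0 were lower (16.9% of all genes) and 3 higher (9.73% of all genes). Krt20, a keratin of mature surface cells, was at -0.51, -2.71 and 0.45, the sharpest being again mouse 3407. The peptide hormone genes of the surface, Guca2a (0.95, 1.06 and 0.09) and Guca2b (0.55, 0.74 and 0.15), were higher in all 3 mice. Of the enteroendocrine genes, 6 of 14 were higher and 8 lower, with a median of -0.02; in 3 of 3 mice 2 were higher, Pyy and Tac1, and 3 lower. Tac1, which encodes substance P, was at 0.46, 0.52 and 0.94, while Tph1, the enzyme of serotonin synthesis in enterochromaffin cells, was at -0.57, -0.88 and -0.34.

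Markers of epithelia foreign to the colon were also measured. Of 19 squamous genes, 16 were lower (60.2% of all genes), 7 of them in 3 of 3 mice (16.9% of all genes), with a median of -0.14. Under quantile normalization 14 were lower. Medians were -0.27, -0.02 and -0.12 in mice 2201, 3407 and 3413, where 19, 10 and 15 members were lower. Without mouse 2201, whose pair crosses the array groups, the median was -0.05. Dsg3, a desmosomal cadherin, stood at 9.92, 9.32 and 9.24 early and at 8.37, 8.21 and 8.86 late, without overlap. Sprr1a, a cornified envelope protein, was at -1.73, -0.29 and -0.58, and Ly6d, a surface marker of stratified epithelium, at -0.71, -0.57 and -0.55. Gastric-type genes were mixed, with 5 of 15 higher. Gkn1 was at -0.65, -0.27 and -0.15 and the gland mucin Muc6 at -0.94, -0.36 and -0.72, while Aqp5, a water channel, was at 0.59, 0.65 and 0.47 and the calpain gene Capn8 at 0.27, 0.72 and 0.42.

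Among genes that handle drugs and toxins, 11 of 22 were higher and 11 lower. Abcc2, above, led the lower side together with Ugt2b34, a glucuronosyltransferase, at -0.50, -0.46 and -0.15. Nqo1, a quinone reductase, was higher by 0.59, 0.33 and 0.66.

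The T cell, B cell, macrophage, MHC class II, complement, fibroblast and endothelial lists had their largest median in mouse 2201, whose pair crosses the array groups. T cell genes were higher in 15 of 16, with medians of 1.07, 0.14 and 0.16 in mice 2201, 3407 and 3413. The mean level of the list ran from 7.26 to 7.80 in the early biopsies and from 7.49 to 8.41 in the late ones. Il7r, the interleukin-7 receptor, stood at 7.19, 7.37 and 8.60 early and at 9.36, 8.01 and 9.05 late. Cd3g, part of the T cell receptor complex, was at 2.16, 0.56 and 0.89, the costimulator Icos at 2.22, 0.69 and 0.32, and Il2ra, the interleukin-2 receptor chain of regulatory and activated T cells, at 1.78, 1.28 and 0.02. The T cell list kept its direction in each mouse, and 9 of 16 members were higher in 3 of 3 mice (9.73% of all genes).

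Apart from the acute-phase and mucosal defence list above (medians of 0.17, 0.54 and 0.28), the other immune lists did not keep 1 direction. Genes of MHC class II, the molecules that present antigen, were at medians of 1.69, -0.34 and 0.15, with H2-Aa at 3.73, -1.01 and 0.32 and the invariant chain gene Cd74 at 2.80, -0.47 and 0.13. B and plasma cell genes had medians of 0.87, 0.06 and -0.02. Jchain, which joins antibody units in plasma cells, stood at 7.31, 9.01 and 11.69 early and at 12.53, 8.21 and 11.29 late, so its value in mouse 2201 moved by 5.22 while those of the other mice moved by -0.81 and -0.41. Macrophage and monocyte genes had medians of 0.86, -0.07 and -0.03. Complement genes were higher in 9 of 11, with medians of 1.12, -0.01 and 0.11, and their median of 0.36 was 0.01 without mouse 2201. Their members included C1ra, a protease of the classical pathway, at 1.64, 0.58 and 0.20 and Cfb, of the alternative pathway, at 0.51, 0.21 and 0.36, while the inhibitor gene Cfi was at -0.39, -0.61 and -0.17.

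Granulocytes and mast cells went by other mice. Neutrophil genes had medians of -0.57, 0.11 and 0.70, with Mmp8, a neutrophil collagenase, at -0.57, 1.39 and 1.06 and the granule protein gene Ngp at -0.13, 0.65 and 0.73. Mast cell genes had medians of 0.43, -0.93 and -0.55. Mcpt1, a protease of mucosal mast cells, stood at 11.43, 11.14 and 11.20 early, nearly equal across the mice, and at 11.00, 7.66 and 9.35 late. Mcpt2, its relative, stood at 12.22, 12.11 and 12.14 early and at 12.03, 9.12 and 10.64 late, again without overlap between the groups. Cpa3, a carboxypeptidase of all mast cells, was at 0.99, -2.57 and -1.09. Interferon response genes had medians of 0.76, -0.82 and 0.02, although Usp18, a brake on the response, was at -0.59, -2.14 and -0.62.

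Fibroblast and matrix genes were higher in 19 of 21, but with medians of 1.04, 0.34 and -0.39 in mice 2201, 3407 and 3413, and -0.01 without mouse 2201. The mean level of the list ran from 9.76 to 11.06 early and from 10.67 to 10.76 late, so the groups overlapped. Hmcn1 was the 1 member higher in 3 of 3 mice. Col12a1, a fibril-associated collagen, was at 1.10, 1.27 and -0.38. Endothelial genes were higher in 17 of 19, with medians of 0.82, 0.10 and -0.16, and without mouse 2201 their median was -0.06. The vessel genes Eng (1.79, 0.35 and -0.22) and Vwf (1.41, -0.02 and 0.32) were highest in mouse 2201, and Egfl7, an endothelial secreted factor, was the 1 member higher in 3 of 3 mice (0.45, 0.09 and 0.17). Smooth muscle genes had medians of 0.92, 0.10 and -0.75. Enteric neuron and glia genes were lower in 11 of 11 (60.2% of all genes), or in 8 after quantile normalization, with a median of -0.11. Medians were -0.26, -0.0004 and -0.12 in mice 2201, 3407 and 3413, where 11, 6 and 10 members were lower. Without mouse 2201 the median was -0.04. The list was dim, with mean levels of 6.90 to 7.08 early and 6.76 to 6.83 late. Npy, a neuropeptide of enteric neurons, was at -0.35, -0.33 and -0.60.

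**Figure D4:**
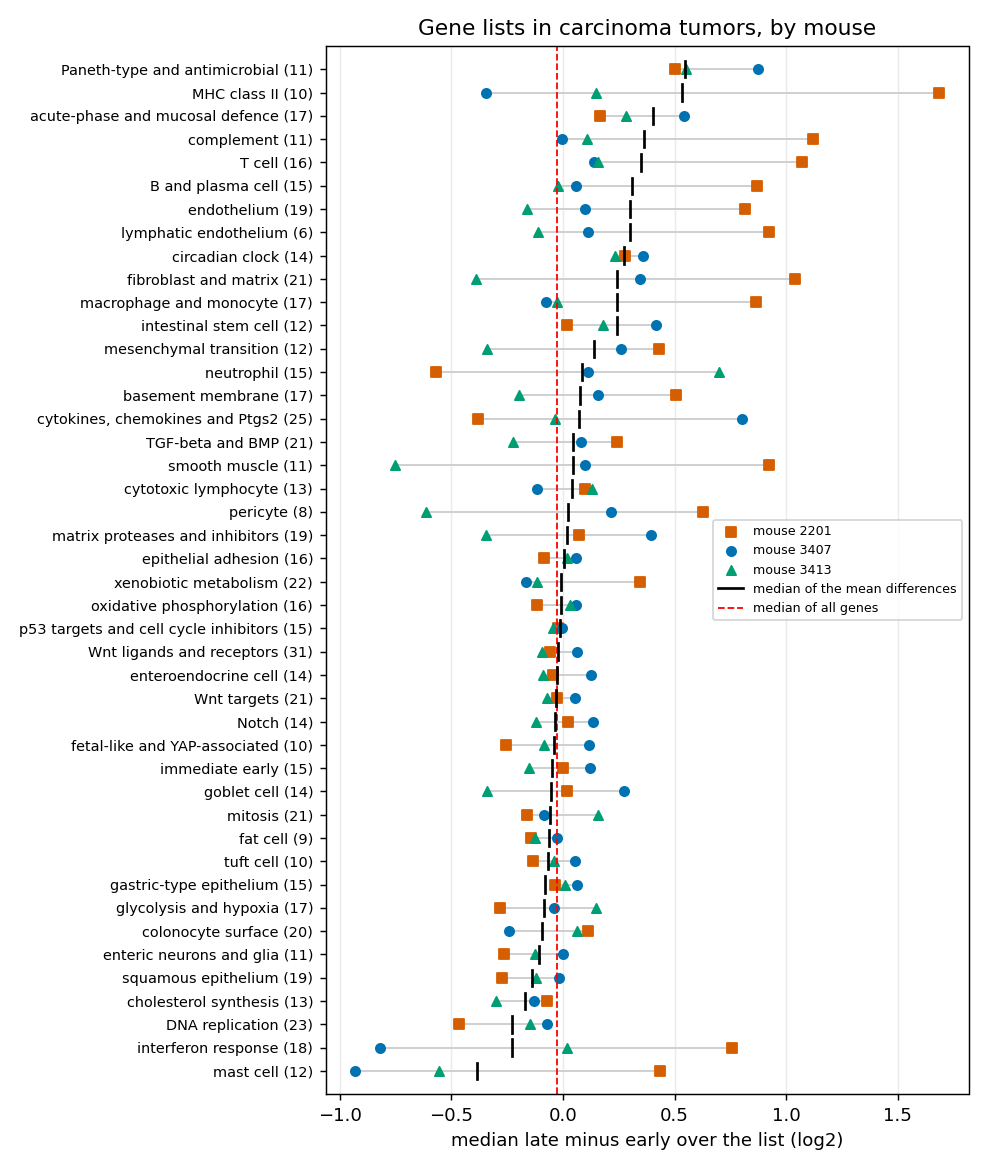
Median late minus early difference (log2) of each gene list with 5 or more measured genes (number in brackets) in the 3 carcinoma mice; black lines are the median of the mean differences and the dashed line that of all genes, -0.03. Mouse 2201 lies far to the right for MHC class II (1.69), T cell (1.07) and fibroblast genes (1.04), while clock and Paneth-type genes hold the 3 mice on 1 side.

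Against the adenoma tumors, no gene differed in its change at an adjusted p of 0.05 in limma (0 of 19938, percent called 0; smallest adjusted p 0.456), and 1404 had an unadjusted p under 0.05 (7.04%): 733 had a higher change in carcinoma (3.68%) and 671 a lower one (3.37%). All 3 adenoma pairs cross the array groups, as does that of mouse 2201, while those of 3407 and 3413 do not, so in all mice but 2201 the crossing and the pathology cannot be told apart. At the late biopsy adenoma mice 1755, 1803 and 1805 were 234, 369 and 395 days old, the first of them younger than carcinoma mouse 2201.

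Among genes within the naming rules given below, Pld5 had the smallest p on the higher side. It was at 1.39, 1.14 and 1.10 in the carcinoma mice and at -0.04, -0.52 and -0.11 in mice 1755, 1803 and 1805. The difference of the changes was 1.43 (SE 0.161, adjusted p 0.456 in limma). Spink1, a trypsin inhibitor, was at 0.85, 0.04 and 0.34 in carcinoma and at -1.25, -1.75 and -1.39 in adenoma tumors. Wnt10a, a Wnt ligand, was near its early level in carcinoma tumors (-0.14, -0.11 and -0.12) and lower in adenoma tumors, at a mean of -1.26 ± 0.24 (SD, n = 3). Nr1d2 was higher in each carcinoma mouse and lower in each adenoma mouse (-0.49, -0.29 and -0.60).

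On the lower side, Bst1, an enzyme of the ADP-ribosyl cyclase family, was at -0.22, 0.06 and 0.19 in carcinoma and at 1.19, 1.06 and 1.13 in adenoma tumors. Ddah1, which breaks down an inhibitor of nitric oxide synthesis, was at -0.13, 0.27 and -0.55 against 1.34, 1.26 and 1.42. The semaphorin gene Sema6d was at 0.42, 0.06 and -0.12 against 1.05, 1.24 and 1.58. Cdr2l was lower in each carcinoma mouse (-0.40, -0.32 and -0.26) and higher in each adenoma mouse (0.27, 0.28 and 0.41).

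**Figure D5:**
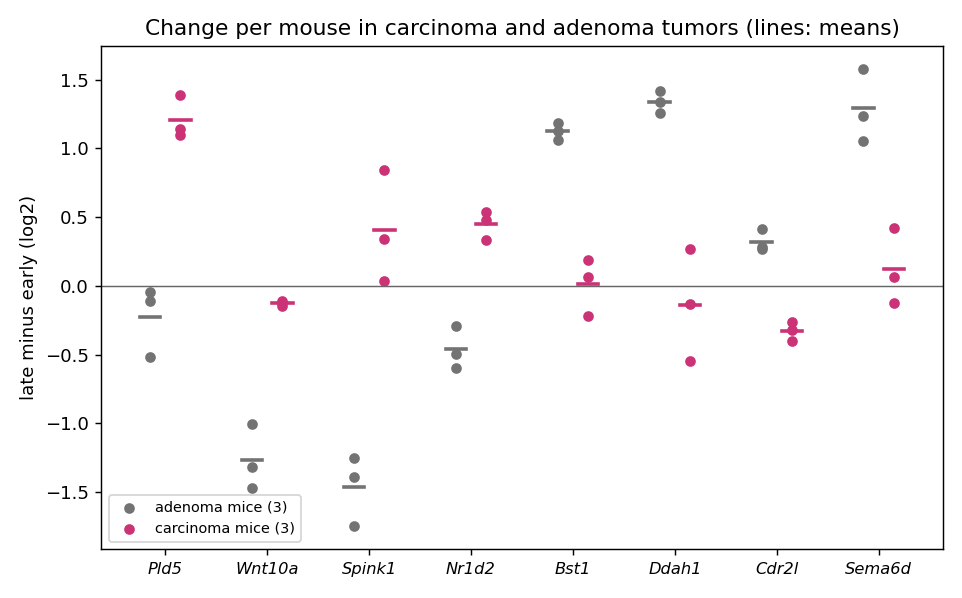
Late minus early difference (log2) per mouse in the 3 carcinoma and 3 adenoma mice for the 8 genes with the smallest unadjusted p of the difference between the changes; short lines are means. Carcinoma points of Wnt10a, Bst1, Ddah1 and Sema6d lie around 0 while the adenoma points lie away from it, and those of Pld5, Spink1, Nr1d2 and Cdr2l lie on opposite sides of 0.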

How the data were processed

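Expression was measured on Affymetrix mouse gene arrays, 1 per biopsy, from 300 ng of RNA per biopsy, per the labels' protocols; biopsies were kept in RLT buffer or RNALater, with no record here of which was used for each. The authors' deposited values cover 35557 probe sets and were taken as log2 intensities because of their range (2.56 to 14.83). Their summarisation and normalisation are not given in the sources used here. Depth as in sequencing does not apply: the number of arrays limits the precision. Probe sets with 1 symbol (21789; 1621 name several and 12147 none) were used, and the brightest of a gene was kept, leaving 19938 genes, with no filter on dim genes.

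Samples were grouped by time and final pathology from the labels. Late was compared with early by limma 3.58.1 in R 4.3.3 (lmFit, eBayes, 2-sided moderated statistic, Benjamini-Hochberg over 19938 genes, threshold 0.05) on all 12 arrays with mouse as block, 4 residual degrees of freedom. The pairing comes from the animal; deviations of the 2 arrays of a mouse from their group means correlated at r = 0.04 (2201), 0.33 (3407) and 0.28 (3413), and of these 3 early arrays that of mouse 3407 alone was best matched by its own late array. Replicates are separate mice, with 1 biopsy each per time. The script was tested on simulated data.

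Named genes are, among those above the 25th percentile of mean level, the 12 per direction with the smallest p and 1 direction in 3 of 3 mice, the 8 per direction with the largest smallest change, up to 4 members of each of 45 lists by p plus defining members of lists described in depth, fixed genes, and the 4 per direction with the smallest p for the difference between pathologies. Predicted genes, small RNAs, receptor and immunoglobulin segments were not named. Lists hold 729 genes, 674 measured; others are not analysed here. Members and lists were chosen with earlier results of these data known, and lists are described without a test. Alternatives were other scalings, blocks, filters, probe set rules and leaving out each mouse; the counts at 0.5 log2 were added after seeing the data.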

Additional observations from a re-analysis of the deposited data

Results flagged for a closer look

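Several results had every carcinoma mouse moving one way and every adenoma mouse the other. The differences below are the carcinoma change minus the adenoma change (log2); none passed an adjusted p of 0.05 in limma. Among genes they were 1.43 for Pld5, 1.87 for Spink1, 0.91 for Nr1d2, 0.47 for Ccna1, 0.63 for Tef, 0.58 for Per3, 1.43 for Dbp, 1.03 for Ciart, 0.91 for Cfb, -0.59 for Efna2, -0.65 for Cdr2l, -0.84 for Arntl and -3.13 for Ibsp. As medians over a list they were 0.44 for the clock genes and -0.13 for fat cell genes, and the difference of a list was not tested. All 3 adenoma pairs and that of mouse 2201 cross the array groups.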

How the results depend on the processing

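The count of genes called late against early was 0 under every alternative but 2, each run with limma: with mouse as a random block 1 gene was higher, Pld5 (adjusted p 0.0433), and without adenoma mouse 1805 1 gene was lower, Ibsp (adjusted p 0.0281). Leaving out each mouse gave 0 to 0 higher, 0 to 1 lower and 0 to 0 for the difference between pathologies. Without the replicate block 0, 0 and 0 genes were called (160, 290 and 834 at an unadjusted p under 0.05). Without 1 carcinoma mouse each, genes whose groups do not overlap numbered 1911 to 2621 higher and 2575 to 4389 lower. Those past 0.5 log2 in every mouse numbered 67 to 186 higher and 83 to 103 lower. These counts are larger since fewer mice have to be alike. Quantile normalization gave 730 and 917 without overlap, and arrays centred on the median gave 504 and 836. Once array group entered the fit, the carcinoma change rested on mice 3407 and 3413 alone, and it reversed for Myc (0.0596), Mki67 (0.0412), Sema6d (-0.0304), Jchain (-0.61), H2-Aa (-0.35) and Cd74 (-0.17). Leaving out each mouse turned the same 6 and some others, with ranges of -0.14 to 0.0596 for Myc, -0.12 to 0.0412 for Mki67, -0.0304 to 0.24 for Sema6d, -0.61 to 2.41 for Jchain, -0.35 to 2.03 for H2-Aa, -0.17 to 1.46 for Cd74, -0.0776 to 0.0051 for Axin2, -0.0097 to 0.10 for Pla2g2a, -0.077 to 0.12 for Bst1, -0.34 to 0.0699 for Ddah1, -3.36 to 0.25 for Clca1 and -3.05 to 1.12 for Zg16. None of these genes was called in any of these fits. The other named genes kept their direction under the alternatives run. The 3 tumors with 1 biopsy each per time limit every statement.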
